A study of Rattus norvegicus with 4 samples.

Results

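The genes described here are those of the MCM helicase and of the factors that load it at replication origins: the ring subunits Mcm2, Mcm3, Mcm4, Mcm5, Mcm6 and Mcm7, the replisome factor Mcm10, and the loaders Cdc6, Cdt1 and Orc1. They were chosen by gene symbol among the probe sets of a rat expression array, and 9 of the 10 symbols, with 10 probe sets between them, were named on it, of 14217 named genes in all; Cdc6 was not analysed here. RNA came from hippocampal progenitor cells of Fisher 344 rats, which divide in culture and can give neurons or glia. One array was hybridised for each of 4 groups: the small molecule KHS101 at 5 uM, KHS101 at 1.7 uM, 1 uM retinoic acid together with forskolin, and the solvent DMSO, per the labels. KHS101 was studied for its effect on neuronal differentiation; retinoic acid, the study's positive control, is a differentiation signal and forskolin activates adenylyl cyclase. The sources used here name no dose of forskolin. The solvent was at 0.1% in the DMSO group, and no DMSO level was recorded here for the groups with compound. Per the labels' protocols, all groups were early-passage cells plated at 1000 cells per square centimetre in N2 medium and kept with compound or solvent for 4 days; each array is 1 sample of RNA. No group had a replicate, so no difference below has a test, a p-value or a replicate error, and only 1 DMSO array stands behind all differences from DMSO.

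Before a cell can copy its DNA, origins are licensed in G1 phase: the origin recognition complex (ORC), Cdc6 and Cdt1 load the ring of MCM subunits onto DNA in an inactive form. In S phase the kinase Cdc7, Cdc45 and the GINS complex turn the loaded ring into the working helicase, and geminin blocks Cdt1 so that no origin is licensed again. The genes of the ring and its loaders are transcribed under the control of E2F factors in cycling cells, and MCM proteins are widely used as a mark of cells that can still divide.

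Values are log2 expression as deposited. A value of 5 was taken as the floor of specific signal, a gene counted as measured in a comparison if at least 1 of its 2 arrays was above 5, and a gap of 2-fold or more was the limit for calling it higher or lower. All 10 probe sets were above the floor on all 4 arrays. Levels of different probe sets cannot be set against each other, so only differences between arrays are compared between genes. The deposited columns were almost alike in distribution, with a largest gap of 0.19 between arrays at equal ranks, so a change of all genes one way would not be seen. In RNA of whole cultures, fewer cells that express a gene and less of its RNA per cell cannot be told apart.

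Each of the 9 genes was lowest with KHS101 at 5 uM, next with KHS101 at 1.7 uM, next with retinoic acid plus forskolin, and highest in DMSO, and all 10 probe sets had that order. Over all 8646 genes above the floor on any array, 10.0% had it. The step between KHS101 at 1.7 uM and retinoic acid plus forskolin was small, from 0.03 for Cdt1 to 0.74 for Mcm3. It passed 2-fold in 0 of 9 genes, and without replicates those arrays cannot be ranked for these genes. The median log2 difference from DMSO over the 9 genes was -2.67 with KHS101 at 5 uM, -1.39 at 1.7 uM and -0.97 with retinoic acid plus forskolin, against 0.0011, -0.01 and -0.03 over all measured genes. Lower at 2-fold or more than DMSO were 9 of 9 genes at 5 uM (8.10% of all measured genes), 9 of 9 at 1.7 uM (4.27% of all) and 4 of 9 with retinoic acid plus forskolin (3.15% of all), and 0 were higher in any of these, where 6.16%, 4.36% and 4.34% of all measured genes were. In all 3 treatments Mcm3, Mcm10, Cdt1 and Orc1 were lower by 2-fold or more, 4 of 9, against 0.868% of all genes above the floor on any array. These comparisons share the DMSO array.

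Among the subunits of the helicase ring the differences from DMSO varied in size. Mcm3 (probe set 1372406_at) had log2 values of 6.67 with KHS101 at 5 uM, 8.47 at 1.7 uM and 9.22 with retinoic acid plus forskolin, against 10.38 in DMSO. It was therefore 13.1-fold, 3.75-fold and 2.24-fold lower, and at 5 uM it ranked 2 from the lowest of 8543 measured genes. Mcm5 (1376055_at), which pairs with Mcm3 in the ring, read 8.05 at 5 uM, 9.87 at 1.7 uM and 10.52 with retinoic acid plus forskolin, against 11.32 in DMSO. It was 9.65-fold lower at 5 uM and 2.74-fold lower at 1.7 uM, ranking 9 from the lowest at 5 uM, and its 1.74-fold difference with retinoic acid plus forskolin did not reach 2-fold. Mcm3 and Mcm5 had the largest differences from DMSO of the 6 subunits at 5 uM.

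Mcm6 (1371074_a_at) gave 10.47 at 5 uM, 11.83 at 1.7 uM and 12.06 with retinoic acid plus forskolin, against 13.04 in DMSO, which put it 5.91-fold, 2.30-fold and 1.96-fold lower. Mcm2 (1374036_at), the subunit that also binds histones, gave 9.49, 10.49 and 11.00 in the same order, against 11.71 in DMSO, and was 4.68-fold, 2.34-fold and 1.64-fold lower. With retinoic acid plus forskolin neither of them passed 2-fold.

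Mcm4 (1373557_at) and Mcm7 (1388744_at), which form the catalytic core of the ring together with Mcm6, had the smallest differences from DMSO at 5 uM. Mcm4 read 9.61 at 5 uM, 10.14 at 1.7 uM and 10.66 with retinoic acid plus forskolin, against 11.53 in DMSO, or 3.80-fold, 2.63-fold and 1.84-fold lower. Mcm7 read 11.61, 12.14 and 12.66 in the same order, against 13.28 in DMSO, or 3.18-fold, 2.20-fold and 1.55-fold lower. Across the 6 subunits the signal left with KHS101 at 5 uM thus ran from 7.62% of the DMSO level for Mcm3 to 31.4% for Mcm7. Each subunit rests on 1 probe set, so a difference between subunits cannot be told apart from a difference between probe sets.

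**Figure D1:**
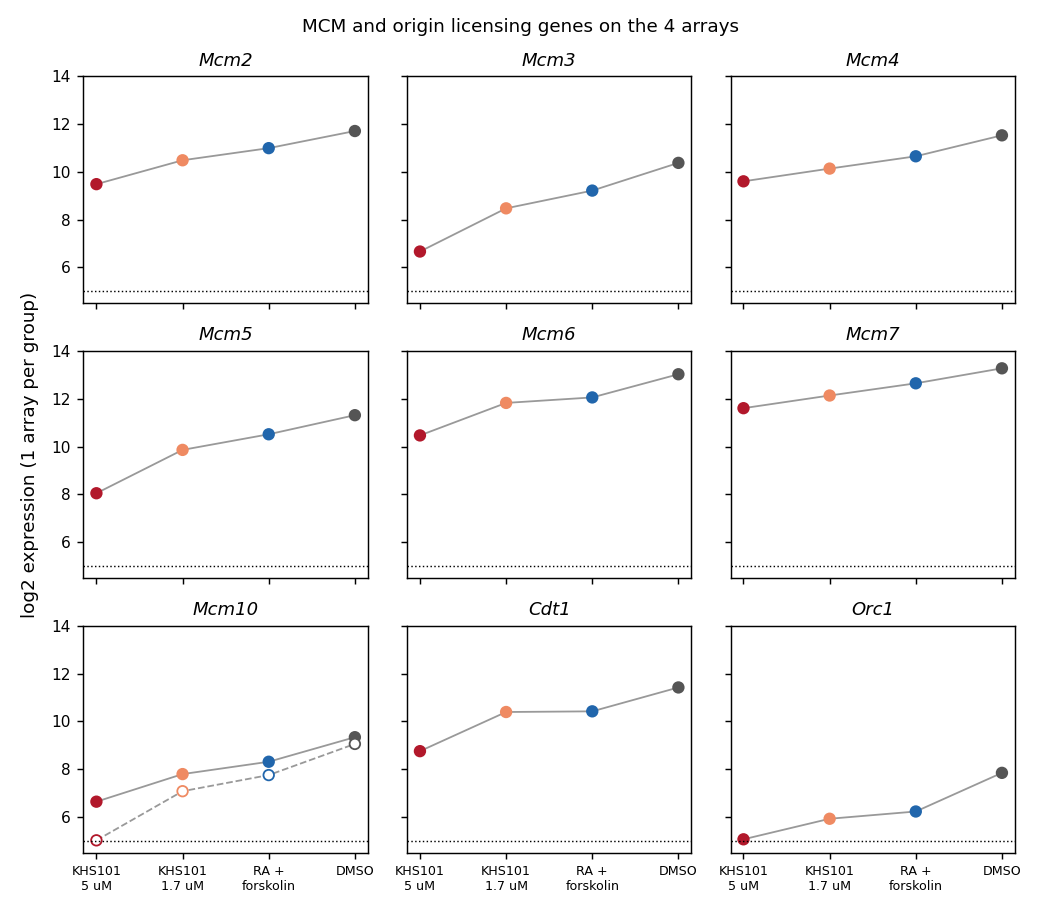
Log2 expression (vertical axis) of the 9 MCM and licensing genes on the 4 arrays, 1 point per array, with lines joining the values of a probe set; the open points and broken line are the other probe set of Mcm10, and the dotted line is the floor of 5. In each panel KHS101 at 5 uM is lowest and DMSO highest, from 6.67 against 10.38 for Mcm3 to 11.61 against 13.28 for Mcm7.

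Among the loaders, Cdt1 (1377967_at), which carries the ring to ORC, had log2 values of 8.76 with KHS101 at 5 uM, 10.40 at 1.7 uM and 10.42 with retinoic acid plus forskolin, against 11.42 in DMSO. It was 6.36-fold lower at 5 uM, and 2.04-fold and 2.00-fold lower in the other groups, so its calls there stand at the edge of the 2-fold limit. The array of KHS101 at 1.7 uM and that of retinoic acid plus forskolin lay 0.03 apart for this gene, the smallest gap of the 9 genes between that pair. Centring the arrays on their medians, or quantile normalization, put Cdt1 at -0.99 with retinoic acid plus forskolin, just short of 2-fold.

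Orc1 (1385522_at), the ORC subunit whose level rises and falls over the cell cycle, read 5.06 at 5 uM, 5.92 at 1.7 uM and 6.23 with retinoic acid plus forskolin, against 7.85 in DMSO. It was 6.89-fold, 3.79-fold and 3.07-fold lower, and of the 9 genes it was the one furthest from DMSO with retinoic acid plus forskolin, where it ranked 29 from the lowest of 8535 genes. The value at 5 uM stood only just above the floor; with a floor of 6 its difference from DMSO was bounded at -1.85.

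Mcm10, which joins the helicase to the polymerase that primes DNA, was the single gene with 2 probe sets. Probe set 1381298_at, used for the gene, read 6.64 at 5 uM, 7.79 at 1.7 uM and 8.31 with retinoic acid plus forskolin, against 9.34 in DMSO, and so was 6.51-fold, 2.92-fold and 2.04-fold lower. Probe set 1392061_at read 5.02, 7.08 and 7.75 in the same order, against 9.06 in DMSO, and was 16.4-fold lower at 5 uM. Both kept the same order of arrays, but their differences at 5 uM, -2.70 and -4.04, lay 1.34 apart on the log2 scale. An order among genes whose differences lie closer than that gap is not settled by these arrays.

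**Figure D2:**
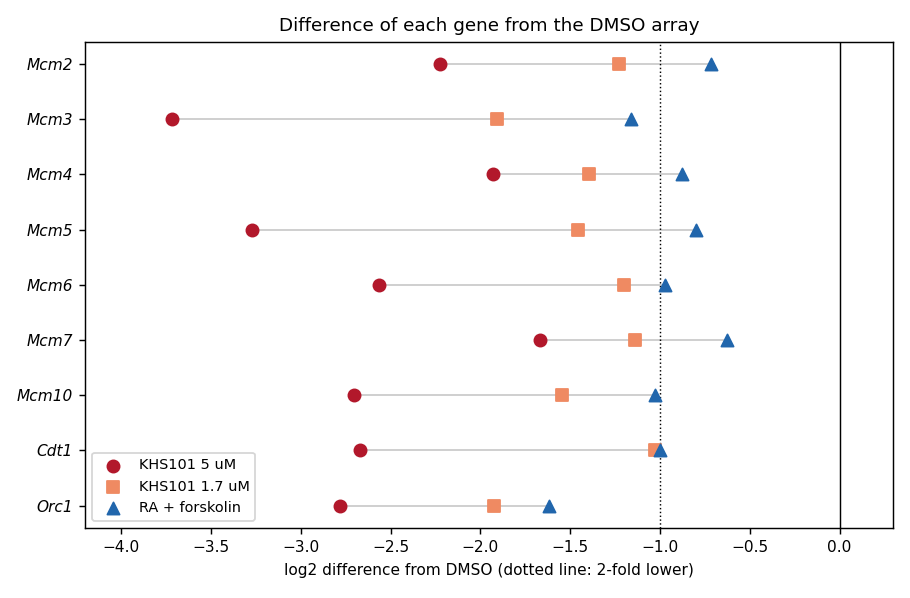
Log2 difference from DMSO (horizontal axis) for each gene (rows), with 1 symbol for each treatment and a dotted line at 2-fold lower. All symbols lie left of 0; the KHS101 5 uM circles run from -3.71 (Mcm3) to -1.67 (Mcm7), and 5 of the 9 triangles for retinoic acid plus forskolin lie right of the dotted line.

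The step between the KHS101 concentrations was also of unequal size. At 5 uM against 1.7 uM, 6 of the 9 genes were lower by 2-fold or more (1.73% of all measured genes) and 0 were higher (0.812% of all), with a median log2 difference of -1.16 against -0.01 over all genes. Mcm5 was 3.52-fold lower at the higher concentration, Mcm3 3.50-fold, Cdt1 3.12-fold, Mcm6 2.57-fold and Mcm10 2.23-fold, and Mcm2 lay at the limit, 2.00-fold. Orc1 at 1.82-fold, Mcm4 at 1.45-fold and Mcm7 at 1.44-fold did not reach it. Expressed as a share of the log2 difference from DMSO at 5 uM, the difference at 1.7 uM was 38.6% for Cdt1, the lowest, and 72.3% for Mcm4, the highest, with a median of 55.0%. Mcm2 fell just short of the limit, at -0.99, after the arrays were centred or quantile normalized.

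KHS101 was also set against retinoic acid plus forskolin. At 5 uM 9 of 9 genes were lower than with retinoic acid plus forskolin by 2-fold or more (10.2% of all measured genes) and 0 were higher (8.94% of all), led by Mcm3 at 5.87-fold and Mcm5 at 5.54-fold, with Mcm4 and Mcm7 at 2.07-fold and 2.06-fold. With a floor of 6 the bound for Orc1 no longer passed 2-fold (log2 difference -0.23). At 1.7 uM 0 of 9 passed 2-fold against retinoic acid plus forskolin in either direction (of all measured genes, 5.39% were lower and 5.93% higher at this limit), although all 9 were below it, by between 0.03 for Cdt1 and 0.74 for Mcm3. Without replicates these 2 arrays cannot be ranked for these genes.

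**Figure D3:**
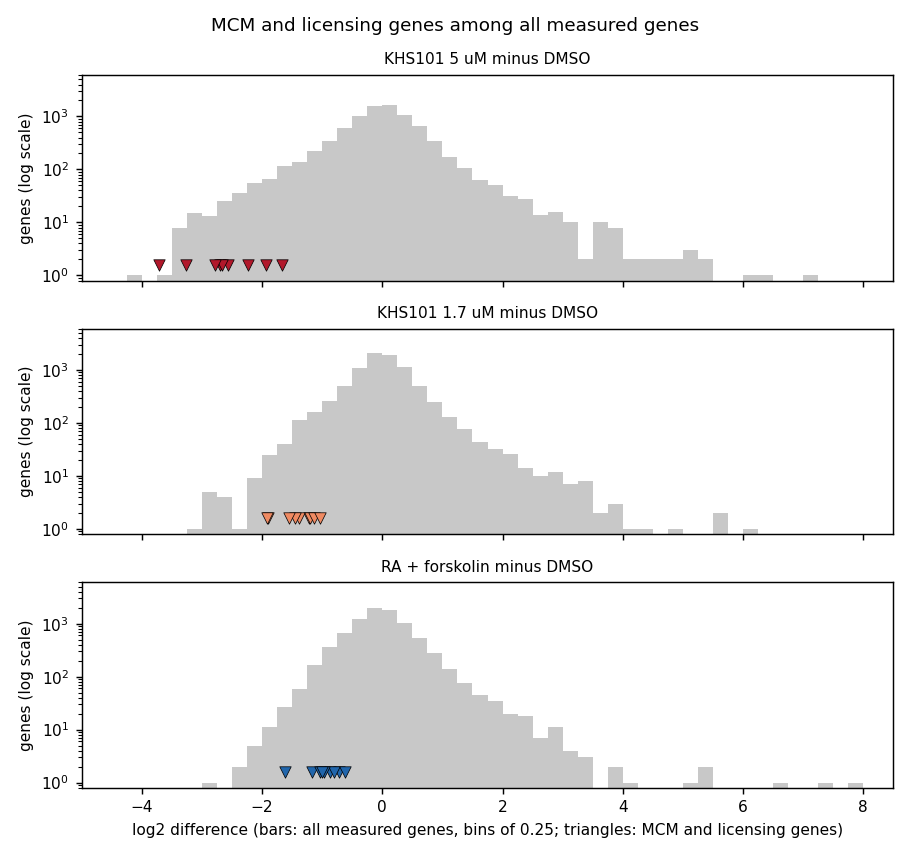
Number of measured genes (vertical axis, log scale) by log2 difference from DMSO (horizontal axis, bins of 0.25) in the 3 treatments, with a triangle for each of the 9 MCM and licensing genes. The triangles lie between -3.71 and -1.67 with KHS101 at 5 uM, between -1.92 and -1.03 at 1.7 uM and between -1.62 and -0.63 with retinoic acid plus forskolin.

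Set against all measured genes, 8 of the 9 genes lay below the lowest 2.5 percentile at 5 uM, which was -1.78, and Mcm7 lay above it. At 1.7 uM 6 of 9 lay below that percentile (-1.22), and with retinoic acid plus forskolin 2 of 9, Mcm3 and Orc1, lay below it (-1.07). The number of genes in that tail was thus highest with KHS101 at 5 uM.

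Promoters of 7 of the 10 genes are held in the RefSeq promoter table of rat build GRCr8, each 300 bases from 250 before to 50 after the annotated start; Mcm4, Cdc6 and Orc1 were not matched. They are shown because all 9 genes passed 2-fold at both KHS101 concentrations and E2F factors are known to act at such promoters. The part of E2F factors in the lower values was not tested. The motifs searched, on both strands, were the E2F-type sequence TTCCCGC with its variants TTGGCGC, or TTCGCGC, or TTGCCGC, the CCAAT box CCAAT and the CHR sequence TTTGAA. Shown are the promoters of the subunits with the largest differences at 5 uM, Mcm3 and Mcm5, and of Mcm6 and Mcm7, the subunit with the smallest, 5′ to 3′ on the gene's strand, with E2F-type matches in capitals; a match on the other strand stands as its reverse complement, and a run of more than 7 capitals holds 2 overlapping matches on opposite strands. Mcm3 lies at chr9:30733697-30733996 on the minus strand, Mcm5 at chr19:13488563-13488862 on the plus strand, Mcm6 at chr13:42404303-42404602 on the minus strand and Mcm7 at chr12:22163129-22163428 on the minus strand.
Mcm3: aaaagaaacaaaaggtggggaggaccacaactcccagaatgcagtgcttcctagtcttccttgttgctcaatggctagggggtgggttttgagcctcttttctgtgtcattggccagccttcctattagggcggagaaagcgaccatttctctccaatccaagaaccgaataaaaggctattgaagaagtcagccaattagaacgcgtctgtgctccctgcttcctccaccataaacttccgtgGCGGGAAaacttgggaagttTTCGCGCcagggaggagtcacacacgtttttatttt
Mcm5: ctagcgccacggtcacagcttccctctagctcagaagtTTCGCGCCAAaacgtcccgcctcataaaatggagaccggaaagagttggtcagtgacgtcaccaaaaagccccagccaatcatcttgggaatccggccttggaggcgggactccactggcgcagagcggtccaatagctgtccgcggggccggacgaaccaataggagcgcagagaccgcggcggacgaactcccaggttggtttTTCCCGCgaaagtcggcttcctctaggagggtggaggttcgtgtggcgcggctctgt
Mcm6: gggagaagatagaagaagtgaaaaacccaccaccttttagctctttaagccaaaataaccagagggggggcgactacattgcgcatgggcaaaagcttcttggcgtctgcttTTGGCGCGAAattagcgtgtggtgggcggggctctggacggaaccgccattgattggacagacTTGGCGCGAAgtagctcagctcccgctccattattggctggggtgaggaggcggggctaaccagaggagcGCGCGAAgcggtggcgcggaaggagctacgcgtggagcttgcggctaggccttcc
Mcm7: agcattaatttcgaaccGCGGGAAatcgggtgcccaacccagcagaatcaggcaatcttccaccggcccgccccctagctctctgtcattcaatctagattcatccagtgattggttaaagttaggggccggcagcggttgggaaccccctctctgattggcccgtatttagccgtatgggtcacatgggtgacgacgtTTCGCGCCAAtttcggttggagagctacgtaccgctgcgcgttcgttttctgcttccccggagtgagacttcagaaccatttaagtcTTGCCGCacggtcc

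All 7 promoters held an E2F-type match, against 10.0% of 27457 promoters in the table. After merging overlaps, Mcm3 and Mcm5 had 2 sites each, Mcm6, Mcm7 and Cdt1 had 3, and Mcm2 and Mcm10 had 1. The Mcm3 promoter, with 2 sites, and the Mcm7 promoter, with 3, belong to the subunits with the largest and smallest differences at 5 uM. Whether the number of sites goes with the size of the difference was not tested. A match spanned the annotated start in Mcm3 and Mcm6, and in Mcm5 one ended just before it, from -7 to -1, counting the start as 1 and the base before it as -1. A CCAAT box was found in 5 of 7 promoters (Mcm3, Mcm5, Mcm6, Mcm7 and Mcm10), against 37.7% of all, and 1 of the Mcm7 E2F-type sites overlaps it. The CHR sequence was found in Mcm2 only, 1 of 7, against 18.1% of all. The 7 promoters were 58.3% G and C in the median, against 52.3% over all promoters, and matches were counted as letters, not as bound sites.

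The rest of the pathway was read from a list of 36 other licensing and firing genes, of which 31 were named on the array and 28 were measured. Lower than DMSO by 2-fold or more were 16 of 28 with KHS101 at 5 uM (8.10% of all measured genes), 13 of 28 at 1.7 uM (4.27% of all) and 7 of 28 with retinoic acid plus forskolin (3.15% of all). None of the 28 was higher in any of the 3, where 6.16%, 4.36% and 4.34% of all measured genes were. Their median log2 differences were -1.41, -0.86 and -0.63. Gmnc, Mcm9 and Tipin were at the floor on every array, and Gins2, Cdc7, Dbf4, Ticrr and Skp2 were not analysed here.

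The subunits of ORC, to which Orc1 belongs, were not alike. Orc6, the smallest and least tightly bound subunit, read 9.95 with KHS101 at 5 uM, 10.49 at 1.7 uM and 10.70 with retinoic acid plus forskolin, against 11.53 in DMSO, and was 2.99-fold, 2.06-fold and 1.78-fold lower. All 3 Orc6 probe sets gave 2.99-fold or more at 5 uM. Orc2 read 9.67, 9.25 and 8.37 in the same order, against 8.92 in DMSO. It was thus above DMSO with KHS101, by 0.75 and 0.33, and below it with retinoic acid plus forskolin, by 0.55, and between KHS101 at 5 uM and that control it was 2.46-fold higher. Orc3, Orc4 and Orc5 differed from DMSO by no more than 0.54 in any group. None of these 4 core subunits passed 2-fold against DMSO, while Orc1 and Orc6 did so at both KHS101 concentrations.

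The genes that turn the loaded ring into a helicase were lower at 5 uM in 9 of 9 cases (8.10% of all measured genes), at 1.7 uM in 7 of 9 (4.27% of all) and with retinoic acid plus forskolin in 4 of 9 (3.15% of all). Of the GINS complex, Gins1 was 5.61-fold lower at 5 uM, Gins3 5.25-fold and Gins4 3.20-fold, and each of them also passed 2-fold in the other groups. Cdc45, the partner that completes the helicase, was 4.48-fold lower at 5 uM and 2.42-fold at 1.7 uM, with 1.93-fold for retinoic acid plus forskolin. Its other probe sets above the floor gave 9.24-fold and 5.07-fold at 5 uM. Topbp1, which recruits Cdc45, was 3.82-fold lower at 5 uM and Donson, a carrier of GINS, 3.60-fold. Recql4, a helicase-like factor, was at the floor at 5 uM and at least 3.28-fold lower, and Wdhd1 had the smallest difference, 2.06-fold. Mtbp was the 1 gene of these 9 with its larger difference at the lower concentration, 2.64-fold lower at 5 uM and 2.80-fold at 1.7 uM.

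Of 6 measured genes that control Cdt1 and relicensing, 3 were lower at 5 uM (8.10% of all measured genes). Gmnn, which encodes geminin, read 9.36 with KHS101 at 5 uM, 10.41 at 1.7 uM and 11.12 with retinoic acid plus forskolin, against 11.75 in DMSO, so that the inhibitor of Cdt1 was 5.25-fold, 2.52-fold and 1.55-fold lower. Dtl, the substrate receptor that marks Cdt1 for degradation in S phase, was 4.92-fold lower at 5 uM and 1.75-fold at 1.7 uM. Fbxo5, an inhibitor of the anaphase-promoting complex, was 2.67-fold and 2.13-fold lower. The ligase that Dtl works with did not pass 2-fold: at 5 uM its adaptor Ddb1 differed from DMSO by -0.03 on the log2 scale, and its scaffolds Cul4a and Cul4b by 0.22 and -0.81.

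Among relatives and partners of the ring, Mcm8, a helicase of recombination repair, was 3.13-fold lower at 5 uM, 2.29-fold at 1.7 uM and 2.07-fold with retinoic acid plus forskolin. Mcmbp, which binds MCM subunits, differed by -0.56, -0.59 and -0.60 in the same order, and Mcm3ap by 0.01, 0.02 and -0.01. At the fork, the checkpoint mediator Clspn was at the floor at 5 uM and at least 5.74-fold lower, and 4.39-fold and 2.70-fold lower in the other groups. Its partner Timeless was 4.34-fold, 2.81-fold and 2.08-fold lower. Rif1, which restrains origin firing, differed from DMSO by 0.07 at 5 uM, -0.28 at 1.7 uM and -0.92 with retinoic acid plus forskolin. Its probe sets did not give the same size at 5 uM: the other 2 stood at 0.80 and 0.73 from DMSO, none past 2-fold. At 5 uM Kat7, the acetyltransferase of origins, stood at -0.28 and Lrwd1, which binds ORC, at -0.26.

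**Figure D4:**
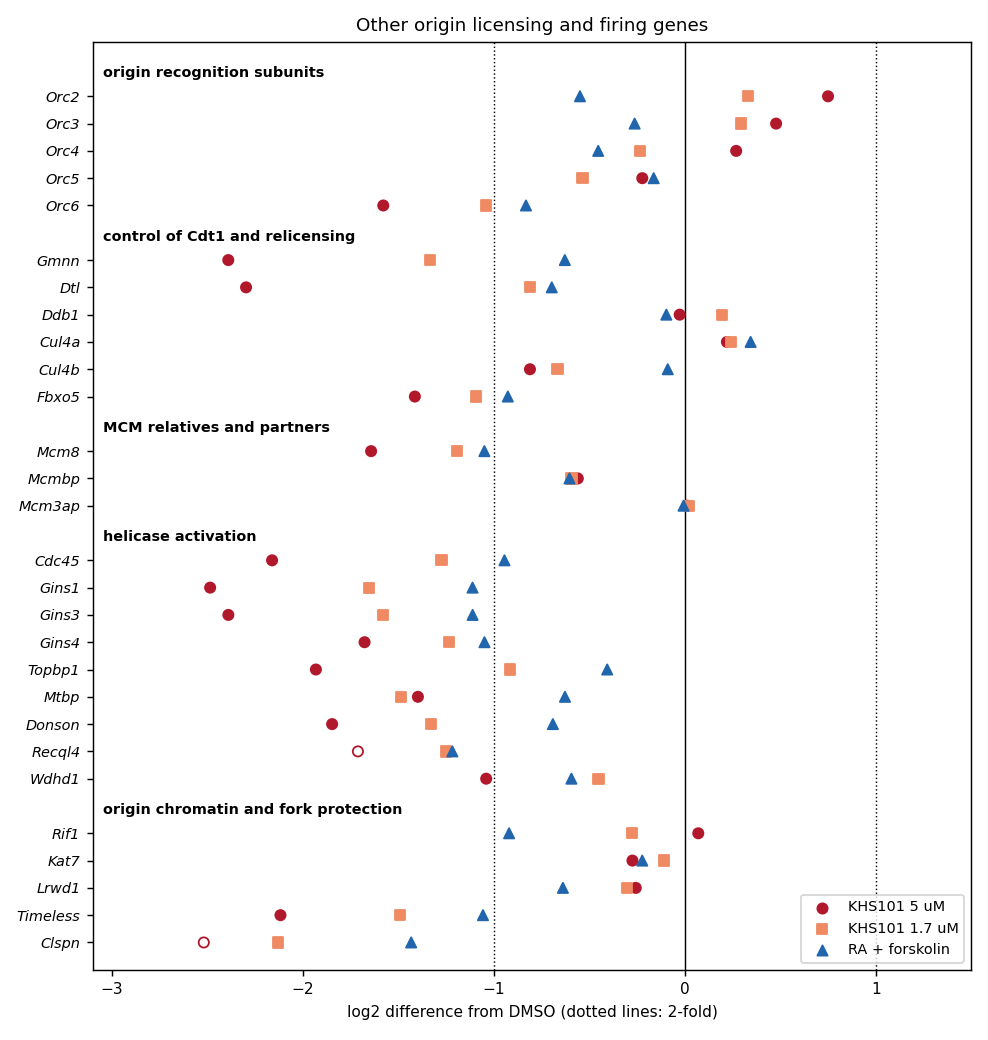
Log2 difference from DMSO (horizontal axis) of the 28 other measured licensing and firing genes (rows, grouped by role) in the 3 treatments, with dotted lines at 2-fold; open symbols are bounds from an array at the floor. All 9 helicase activation genes lie left of the line with KHS101 at 5 uM, while Orc2, Orc3, Orc4 and Orc5 lie between -0.22 and 0.75.

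The same motifs were also counted in these genes, split by their call at 5 uM. Of the 16 genes called lower, 13 had a promoter in the table and 10 of these held an E2F-type match, against 10.0% of all promoters. Of the 12 genes not called, 10 had a promoter and 3 held an E2F-type match (Mcmbp, Orc3 and Orc5). A CCAAT box was found in 9 of the 13 and 4 of the 10, against 37.7% of all promoters, and the CHR sequence in 2 of the 13 and 1 of the 10, against 18.1% of all. The split was made after the values were seen and was not tested.

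Other genes of the cycle were read for comparison. E2f1, an activator of these genes, was 9.45-fold lower than DMSO at 5 uM, 3.02-fold at 1.7 uM and 1.86-fold with retinoic acid plus forskolin. Its value at 5 uM, 5.32 against 8.56 in DMSO, stood only just above the floor. Cdkn1a, which encodes the inhibitor p21, was 11.6-fold and 7.99-fold higher with KHS101 and differed by 1.28-fold with retinoic acid plus forskolin. Its other probe set was at the floor in DMSO and with retinoic acid plus forskolin. That probe set was at least 9.21-fold higher than DMSO at 5 uM and at least 3.58-fold at 1.7 uM. Mki67, a marker of dividing cells, was 2.39-fold lower at 5 uM and 2.34-fold at 1.7 uM, a step of -0.03 between the concentrations, where the 9 genes had steps between -1.82 and -0.53. Pcna, the sliding clamp, was 2.10-fold lower at 5 uM and 1.51-fold at 1.7 uM, less than any of the 9 genes at the same concentration. The other cyclin genes read here were lower at both concentrations: Ccne2, of S phase entry, 6.20-fold and 2.31-fold, and Ccna2, of S phase and G2, 3.69-fold and 2.17-fold. With retinoic acid plus forskolin Mki67 was 1.23-fold lower than DMSO, Pcna 1.25-fold, Ccne2 1.20-fold and Ccna2 1.52-fold. Each of these was less than for any of the 9 genes in that group.

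The profile of differences from DMSO over the 3 treatments was compared with that of 8207 other genes above the floor on all 4 arrays, by Euclidean distance to the median profile of the 9 genes. Ccne1, which encodes cyclin E1, was nearest at 0.04 on the log2 scale, with differences of -2.70, -1.39 and -0.94. Fam83d, Exo1, Rad51c, Dsn1, Pola2, Melk, Pole2, Foxm1 and Pclaf followed, at distances between 0.12 and 0.29. The 9 genes themselves lay between 0.17 (Mcm10) and 1.18 (Mcm3) from their median profile. The distance rests on 3 differences that share 1 array.

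The labelled cell type was checked against marker genes. Of 6 named progenitor markers, Nes, Sox2, Vim and Fabp7 were above the floor on all 4 arrays and Pax6 and Prom1 on none. Of 5 named oligodendrocyte lineage markers, Olig2, Sox10, Pdgfra and Mbp were above it on all arrays and Cspg4 was at the floor. The log2 of their summed linear signal was 13.20 with KHS101 at 5 uM and 13.65 at 1.7 uM. It was 14.88 with retinoic acid plus forskolin and 14.37 in DMSO. The sum was thus below DMSO with KHS101, as the MCM genes were, and above it with retinoic acid plus forskolin, where they were not. Each of the 4 markers above the floor lay on the same sides of DMSO. With retinoic acid plus forskolin Mbp had the largest rise, to 13.36 from 12.07 in DMSO. Olig2 read 11.12 against 11.08 in DMSO, Sox10 12.94 against 12.67 and Pdgfra 13.23 against 12.99. The summed progenitor markers gave 15.27, 15.70 and 15.92, against 16.04 in DMSO. None of the 4 progenitor markers above the floor had the array order of the MCM genes by itself. Nes read 11.89, 11.97 and 10.67, against 11.36 in DMSO, and Sox2 read 13.57, 13.82 and 13.81, against 14.01. Sox2 missed that order only between KHS101 at 1.7 uM and retinoic acid plus forskolin, which read nearly alike. Vim read 14.13, 14.55 and 13.42, against 14.53 in DMSO, and Fabp7 read 12.48, 13.39 and 15.09, against 14.59. Nes was thus above DMSO with KHS101, while Fabp7 was above it with retinoic acid plus forskolin. For neurons, 2 of 6 markers (Tubb3 and Map2) were above the floor, with sums of 12.76, 12.84 and 12.99, against 12.58. Map2, at 12.60, 12.67 and 12.79, against 12.46 in DMSO, made up most of that sum. Tubb3 by itself read 9.48, 9.59 and 9.98, against 8.85 in DMSO. Dcx, Rbfox3, Stmn2 and Snap25 were at the floor. For astrocytes, 2 of 5 (S100b and Slc1a3) were above it, with sums of 13.40, 13.51 and 14.27, against 13.28, and Gfap, Aqp4 and Aldh1l1 were at the floor. S100b, at 13.33, 13.44 and 14.21, against 13.15 in DMSO, made up most of that sum, whereas Slc1a3 was below DMSO with KHS101, at 9.00, 9.20 and 9.74, against 9.72. All 5 microglia and all 5 fibroblast markers were at the floor on every array, and of 3 endothelial markers Kdr was above it with retinoic acid plus forskolin (6.54). RNA integrity was read from control probe sets: the 3′ signal of beta-actin exceeded its 5′ signal by 1.54 with KHS101 at 5 uM, 1.40 at 1.7 uM and 1.37 with retinoic acid plus forskolin, against 1.26 in DMSO, again in the order of the MCM genes. For hexokinase the excess was 0.96, 0.80 and 0.66, against 0.69, and for GAPDH -0.11, -0.14 and -0.12, against -0.16. The part of cell makeup and RNA integrity in the lower MCM values was not tested.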

How the data were processed

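RNA of 4 samples, 1 per group, was amplified with an Affymetrix 3′ kit for expression arrays, per the labels' protocols. The deposited table holds log2 expression values for 31099 probe sets on 4 arrays; that they are log2 was read from their range, up to 16.1. GCRMA and R 2.6.2 are named, without their roles, per the submitters' processing notes; the sources used here name no genome build.

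Of the probe sets, 20826 had 1 symbol in the platform annotation, 436 had several, 9780 were unnamed here and 57 were controls; only the first kind was used. Each gene was read from its brightest probe set by mean, after which values under 5 were raised to 5. Where 1 array was at 5, the difference is a bound ("at least"). The 6 pairwise comparisons were made without a test, as each group is 1 array, which limits the precision. They share 4 arrays, so they are not independent of each other. The calling step was tested on simulated data with set changes and little noise. This checks the code, not the error of a single array. Alternatives changed the floor (4, 6 or none), the call limit (1.5-fold or 3-fold), the probe set rule and the scaling. The genes, gene lists and motifs were chosen with earlier results of these data known. All 9 genes were named with all probe sets; of the pathway list those past 2-fold in any comparison, with the 3 largest and 3 smallest, and the remaining ones by role, a choice made after their values were seen; 7 cycle genes always; for likeness, the 10 nearest genes. The protein motifs planned for the ring subunits are not reported here. Calculations used Python 3.11.15, numpy 2.4.6, pandas 2.3.3 and matplotlib 3.10.9.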

Additional observations from a re-analysis of the deposited data

How the results depend on the processing

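Under the other floors, probe set rules and scalings, 9 of 9 genes were lower than DMSO by 2-fold or more at both KHS101 concentrations. With retinoic acid plus forskolin 3 or 4 of 9 were. Between the concentrations 5 or 6 genes were lower at 5 uM. With a floor of 6 that count leaves out Orc1, which was then at the floor on both arrays and not measured. Against retinoic acid plus forskolin, 8 or 9 of 9 were lower with KHS101 at 5 uM. Of 485 recomputed differences of single genes, 479 moved by under 1.5-fold and 0 of those past 2-fold changed direction. The other 6 were Orc1 at 5 uM with a floor of 6 and Mcm10 at 5 uM from its other probe set or the median of both (-4.04 and -3.37 from DMSO); all medians of the 9 genes moved by under 1.5-fold. The call limit moved counts, since it sets them. Many of the 485 differences could not move. A call limit leaves a difference as it is, and a floor of 4 or none leaves values above 5 as they are. For the 8 genes with 1 probe set the probe set rule changes nothing.

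With a limit of 3-fold, 2 of the 9 genes were lower at 1.7 uM, 1 with retinoic acid plus forskolin, 3 between the concentrations and 5 at 5 uM against retinoic acid plus forskolin. With 1.5-fold, 9 were lower with retinoic acid plus forskolin, and 2 at 1.7 uM against that control. Of the other licensing and firing genes at 3-fold, 2 were lower at 1.7 uM, 0 with retinoic acid plus forskolin, 0 between the concentrations, and 2 lower and 0 higher at 5 uM against retinoic acid plus forskolin. At 1.5-fold, 1 was higher at 5 uM than in DMSO, 18 were lower with retinoic acid plus forskolin and 8 between the concentrations; against retinoic acid plus forskolin 14 were lower and 4 higher at 5 uM, and 4 lower and 2 higher at 1.7 uM. In that comparison at 5 uM, 2 were higher with the median over probe sets, with the lowest-mean probe set and after quantile normalization, against 1.

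Over all genes, lower and higher counts at 1.5-fold and 3-fold were as follows. At 5 uM against DMSO they were 1373 lower and 1248 higher, and 300 lower and 218 higher. At 1.7 uM they were 903 and 896, and 68 and 146. With retinoic acid plus forskolin they were 1040 and 966, and 34 and 134. Between the concentrations they were 533 and 308, and 17 and 12. Against retinoic acid plus forskolin they were 1722 and 1611, and 360 and 304 at 5 uM, and 1124 and 1189, and 151 and 169 at 1.7 uM.

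No paired analysis was possible because each group is 1 array, so no array was left out of a comparison. Signals near the floor limit Orc1, E2f1 and the second Mcm10 probe set at 5 uM. Orc1 was also near it at 1.7 uM, at 5.92, and with retinoic acid plus forskolin, at 6.23. With a floor of 6 its difference from DMSO at 1.7 uM was a bound too, at -1.85.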
